A study of Homo sapiens with 18 samples.

Results

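A set of 10 genes that code for enzymes of fatty acid synthesis, elongation and desaturation were followed through all 18 RNA-seq libraries of the series. The genes were picked for the known function of their products, with earlier results of these data already known. They were ACLY, ACSS2, ACACA, FASN, ELOVL6, ELOVL5, SCD, FADS1, FADS2 and ME1, which is 10 of the 58884 gene identifiers that were counted, and all 10 passed the filter on low counts. The libraries came from T47D, a human luminal breast cancer cell line, in 2 genotypes. WT cells (the line labelled T47D AAV) and PARP1 KO cells (the line labelled T47D JL) were each kept for 48 hours with DMSO, with niraparib at 10 μmol/L or with olaparib at 10 μmol/L, and 3 libraries were made from each of the 6 groups. The knockout is a single line, so PARP1 loss and other differences between these lines cannot be told apart. The study's methods describe 3 dishes for each condition of its omics experiments, but the labels do not tie libraries to dishes, and P values therefore measure the spread between these libraries, which may be technical.

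Fatty acids are built in the cytosol from acetyl-CoA, which ATP citrate lyase (ACLY) makes from citrate and acyl-CoA synthetase short-chain family member 2 (ACSS2) makes from acetate. Acetyl-CoA carboxylase (ACACA) turns acetyl-CoA into malonyl-CoA, fatty acid synthase (FASN) joins these units into palmitate with NADPH as the reductant, and malic enzyme (ME1) is a source of that NADPH. Elongases (ELOVL6, ELOVL5) lengthen the chains and desaturases (SCD, FADS1, FADS2) place double bonds in them, and the transcription of many of these genes is known to be driven by the sterol regulatory element-binding proteins (SREBP).

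The start-site regions of members with different responses are shown first, because many of the genes, though not shown for all, are known to be driven by SREBP. RefSeq promoters (GRCh38) matched 9 of the 10 members, all but FASN, with 14 start sites. Shown are the 250 bases before the start of SCD, the member whose level changed most with niraparib (chr10:100346983-100347232, + strand, between genes), before an internal start of ACACA (chr17:37299768-37300017, - strand, in an intron of the gene) and before a start of ACLY, the member with the smallest decrease that passed the test (chr17:41919023-41919272, - strand, in an intron of a longer ACLY transcript). These windows hold no base of an annotated exon, and capitals mark CCAAT boxes and GC boxes on either strand.

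SCD: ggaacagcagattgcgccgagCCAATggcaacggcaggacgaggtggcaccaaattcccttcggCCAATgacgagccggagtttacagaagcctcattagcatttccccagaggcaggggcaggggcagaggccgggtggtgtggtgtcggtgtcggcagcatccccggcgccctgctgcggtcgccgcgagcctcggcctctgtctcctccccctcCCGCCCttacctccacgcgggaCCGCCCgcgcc
ACACA: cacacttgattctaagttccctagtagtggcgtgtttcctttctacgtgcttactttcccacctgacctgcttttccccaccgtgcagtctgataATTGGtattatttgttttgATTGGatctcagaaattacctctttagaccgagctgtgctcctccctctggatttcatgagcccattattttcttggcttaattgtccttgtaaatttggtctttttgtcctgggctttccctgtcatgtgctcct
ACLY: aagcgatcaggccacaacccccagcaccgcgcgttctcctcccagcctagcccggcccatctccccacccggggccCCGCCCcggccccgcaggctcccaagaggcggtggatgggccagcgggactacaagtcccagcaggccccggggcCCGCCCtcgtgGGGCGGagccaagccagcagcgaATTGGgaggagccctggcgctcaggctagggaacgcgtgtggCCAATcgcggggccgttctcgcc

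SCD holds 2 CCAAT boxes, which begin 229 and 186 bases before the start, and 2 GC boxes within its last 33 bases. The ACACA window shown holds 2 CCAAT boxes and no GC box, whereas the windows of the other ACACA starts hold 5 and 6 GC boxes with 0 and 1 CCAAT boxes. Matches that overlap are counted separately, as in a run of CCGCCC repeats in the first of these other windows. The ACLY window shown holds 2 CCAAT boxes and 3 GC boxes. Over all 14 windows, read on both strands, the CCAAT box (CCAAT) was found in 7 (5 of 9 members) and the GC box (GGGCGG) in 11 (8 of 9 members), against 32% and 42.6% of 35116 RefSeq promoter windows of the same length. The windows are not separate, since both of ACLY and both of FADS2 overlap, so that boxes of ACLY are counted in each of its windows. The E-box CACGTG was found in ELOVL5 alone, against 6.34% of all windows. The sterol regulatory element, written as TCACNCCAC, was in none of the 14 windows and in 0.883% of all windows. The members differ in how many start sites they have, and a match describes letters in these windows and nothing more.

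Library totals were between 28890837 and 52251288 counts, and levels are given as CPM, the counts scaled to library size. PARP1 was at 25.1 ± 1.38 CPM (SD, n = 9) in PARP1 KO and at 337 CPM on average (291 to 373) in the 9 WT libraries, or 7.45% of the WT level (exact permutation test over libraries, 2-sided, P = 4.1e-05). Where the deletion lies is not given in the sources used here, so this residual level is given as measured. Markers of luminal breast cancer cells (8 genes) summed to between 8836 and 14400 CPM. The basal epithelial list summed to between 1.24 and 2.62 CPM, nearly all of it TP63 (1.24 to 2.54 CPM), with KRT5 and KRT14 at or under 0.150 CPM. The leukocyte list summed to at most 0.196 CPM, the endothelial list to at most 0.233 CPM and the adipocyte list to between 0.592 and 1.89 CPM with LEP at 0, and nearly all of the fibroblast sum of 88.7 to 153 CPM was COL1A1, with COL1A2 at or under 0.852 CPM.

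Per transcript length, SCD and FASN were the most abundant members in WT cells with DMSO. SCD was at 272 ± 3.25 RPKM (CPM per kilobase of exon; SD, n = 3), FASN at 148 ± 11.6, ACLY at 114 ± 2.31, ELOVL5 at 38.8 ± 3.48, ACACA at 33.4 ± 1.33, ACSS2 at 11.9 ± 0.174, FADS1 at 5.65 ± 0.152, ELOVL6 at 4.70 ± 0.232, FADS2 at 3.82 ± 0.0160 and ME1 at 0.0620 ± 0.0183. Of the neighbours in this order, ELOVL5 and ACACA were the pair whose libraries overlapped. The RPKM use all annotated exons of a gene, so they are low for genes with long or many annotated exons such as FADS1 and FADS2. ME1 had only 2 to 15 counts in a library.

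**Figure D1:**
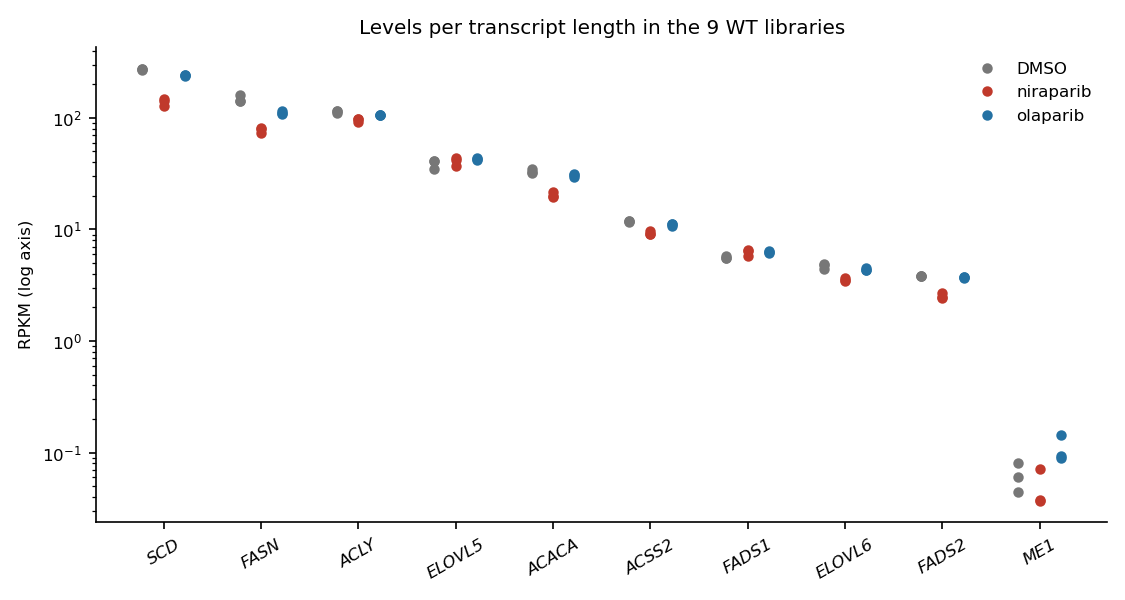
Level of each enzyme gene per transcript length (RPKM, log axis) in the 9 WT libraries, with 1 point per library and colours for DMSO, niraparib and olaparib. SCD and FASN stand at the top with DMSO (272 and 148 RPKM on average), and ME1 lies far under the other 9.

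In WT cells, niraparib lowered the genes of de novo synthesis and of the first desaturation step together. Against DMSO, 7 of the 10 members were lower and 1 was higher at an adjusted P below 0.05 in edgeR, where 18.1% and 19.9% of the 22446 genes tested were lower and higher. Of the 7, 4 were lower by more than 1.5-fold (SCD, FASN, ACACA and FADS2), against 5.72% of all genes. The median log2 fold change of the members was -0.41, against -0.02 for all genes. In bulk RNA, fewer cells that express a gene and less RNA per cell cannot be told apart.

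The acetyl-CoA suppliers decreased modestly. ACLY (chromosome 17, 41866917-41930542, - strand) was at 579, 601 and 597 CPM in the 3 WT libraries with DMSO, at 507, 476 and 510 with niraparib and at 552, 552 and 556 with olaparib. The niraparib libraries lay under all others, and the log2 fold change was -0.25 ± 0.05 (SE; adjusted P = 0.00012, edgeR). ACSS2 (chromosome 20, 34872146-34927962, + strand) was at 61.3, 62.8 and 62.9 CPM in DMSO, 48.2, 47.3 and 50.7 under niraparib and 56.1, 58.1 and 58.1 under olaparib. It too was lowest in all 3 niraparib libraries, with a log2 fold change of -0.36 ± 0.05 (adjusted P = 5.6e-06).

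The committed steps of synthesis decreased more. ACACA (chromosome 17, 37084992-37406836, - strand) was at 454, 429 and 421 CPM in WT cells with DMSO, at 280, 258 and 256 with niraparib and at 408, 387 and 402 with olaparib. This was 61.0% of its DMSO level with niraparib (log2 fold change -0.71 ± 0.05, adjusted P = 2.2e-10). In PARP1 KO cells ACACA was at 420, 403 and 411 CPM in DMSO, 417, 399 and 411 under niraparib and 452, 482 and 440 under olaparib, so that the DMSO and niraparib libraries overlapped and the olaparib libraries stood above both.

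FASN (chromosome 17, 82078338-82098294, - strand) was at 1501, 1305 and 1324 CPM in WT cells with DMSO, 761, 687 and 736 with niraparib and 1026, 1002 and 1076 with olaparib. The 3 groups did not overlap, and both drugs lowered the gene, to 52.9% and 75.1% of the DMSO mean. It was at 1431, 1335 and 1168 CPM in DMSO, 1293, 1280 and 1435 under niraparib and 1260, 1381 and 1385 under olaparib in PARP1 KO cells, with all 3 groups overlapping. The 3 PARP1 KO libraries with DMSO had a wide spread (SD 134 CPM) beside their mean of 1311 CPM.

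Among the elongases, ELOVL6, which extends palmitate, decreased with niraparib, and for ELOVL5, which acts on polyunsaturated chains, no difference passed the test. ELOVL6 (chromosome 4, 110045846-110199199, - strand) was at 32.4, 35.0 and 35.6 CPM in DMSO, 25.3, 25.6 and 26.8 under niraparib and 31.6, 31.7 and 32.6 under olaparib in WT cells. The niraparib libraries were under the other 6 (log2 fold change -0.41 ± 0.06, adjusted P = 8.7e-06). ELOVL5 (chromosome 6, 53267398-53349179, - strand) was at 133, 156 and 155 CPM in DMSO, 159, 142 and 167 under niraparib and 163, 167 and 161 under olaparib, and its DMSO and niraparib libraries overlapped (log2 fold change 0.08 ± 0.06, 95% interval -0.06 to 0.21, adjusted P = 0.39).

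SCD, the stearoyl-CoA desaturase that makes monounsaturated fatty acids, had the largest decrease of the members. SCD (chromosome 10, 100347233-100364826, + strand) was at 1446, 1427 and 1412 CPM in WT cells with DMSO, 773, 665 and 740 with niraparib and 1278, 1242 and 1274 with olaparib. The groups did not overlap, and the means with niraparib and olaparib were 50.8% and 88.5% of the DMSO mean. In PARP1 KO cells SCD was at 1436, 1420 and 1445 CPM in DMSO, 1476, 1406 and 1390 under niraparib and 1524, 1528 and 1463 under olaparib, where niraparib overlapped DMSO and the olaparib libraries were above the DMSO libraries. The SCD pseudogene SCDP1 was at most at 0.511 CPM.

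The neighbouring desaturase genes of polyunsaturated fatty acids went apart. FADS2, the delta-6 desaturase (chromosome 11, 61792980-61867354, + strand), was at 40.2, 39.9 and 40.1 CPM in WT cells with DMSO, 28.3, 25.5 and 25.8 with niraparib and 38.4, 39.6 and 39.0 with olaparib. It was lowest in all 3 niraparib libraries (log2 fold change -0.60 ± 0.06, adjusted P = 3.7e-08), and in PARP1 KO cells it lay between 36.5 and 46.2 CPM in all 9 libraries. FADS1, the delta-5 desaturase (chromosome 11, 61799625-61829318, - strand), was at 56.6, 59.1 and 56.2 CPM in DMSO, 64.5, 58.6 and 66.4 under niraparib and 63.5, 62.8 and 64.6 under olaparib. One niraparib library fell within the DMSO range, and the log2 fold change of 0.14 ± 0.05 passed narrowly (adjusted P = 0.049) and did not pass with DESeq2 (adjusted P = 0.063), with RLE size factors (0.051), without the filter on low counts (0.058), with all 18 libraries in the fit (0.055), with the replicate block (0.074) or without any of 4 single libraries (WT niraparib replicate 1 or 3, WT DMSO replicate 1 or 3; 0.089 to 0.21). The annotated spans of these genes overlap on opposite strands, and the authors counted by strand.

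ME1 (chromosome 6, 83210402-83431051, - strand) was at 0.200, 0.271 and 0.150 CPM in WT cells with DMSO, 0.238, 0.126 and 0.123 with niraparib and 0.311, 0.298 and 0.476 with olaparib. These libraries overlapped between DMSO and niraparib, and at this depth a difference was not detectable (log2 fold change -0.41 ± 0.54, adjusted P = 0.61).

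**Figure D2:**
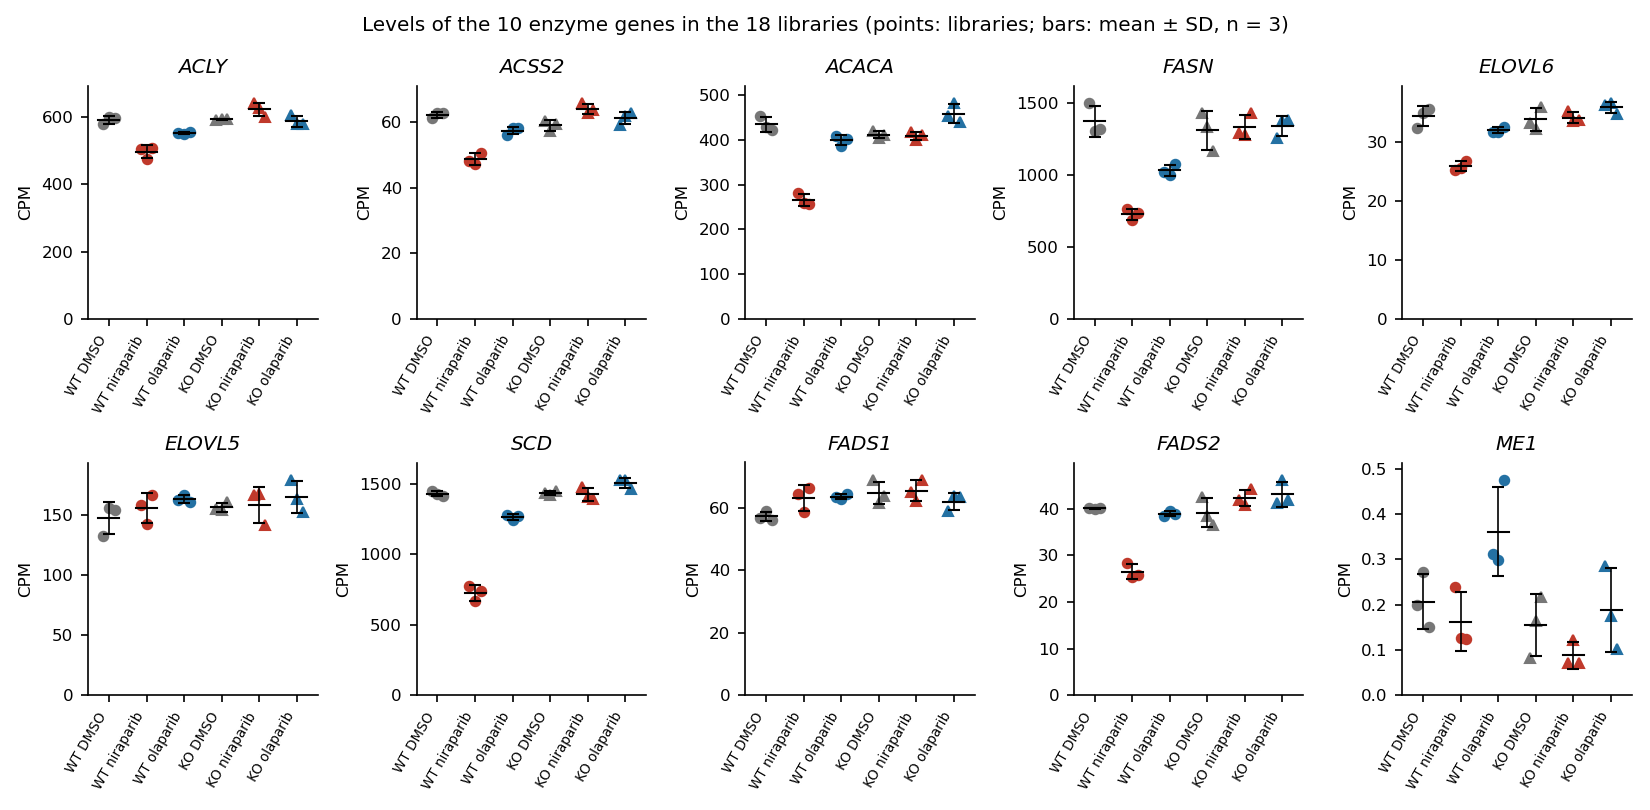
Level of each enzyme gene (CPM, axis from 0) in the 18 libraries, by genotype and treatment, with 1 point per library, a line for the mean and a bar for the SD of 3. SCD, FASN, ACACA, FADS2, ELOVL6, ACSS2 and ACLY are lowest in the 3 WT niraparib libraries, and the PARP1 KO groups lie near the WT DMSO level.

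The changes were unequal within the pathway. Ranked by log2 fold change from the lowest among 9833 genes with at least 10 CPM on average over the 9 WT libraries, SCD was at place 114, FASN at 129, ACACA at 300, FADS2 at 490, ELOVL6 at 1158, ACSS2 at 1454 and ACLY at 2226, with ELOVL5 at 5953 and FADS1 at 6578. The summed level of the 10 genes was 4174 ± 112 CPM (SD, n = 3) in WT cells with DMSO and 2537 ± 135 with niraparib, or 60.8%, and SCD with FASN were 67.2% and 57.3% of that sum. The sums of the 3 WT niraparib libraries were all under those with DMSO, with P = 0.1 in a 2-sided exact permutation test, and 3 against 3 libraries cannot give a smaller one. The ratio of SCD to FASN per transcript length was 1.71, 1.94 and 1.89 with DMSO, 1.80, 1.72 and 1.79 with niraparib and 2.21, 2.20 and 2.10 with olaparib. It overlapped between DMSO and niraparib, where both genes fell by a similar amount (exact permutation test on the log2 ratio, 2-sided, P = 0.4), and was higher in each olaparib library than in each DMSO library (P = 0.1 in the same exact test).

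**Figure D3:**
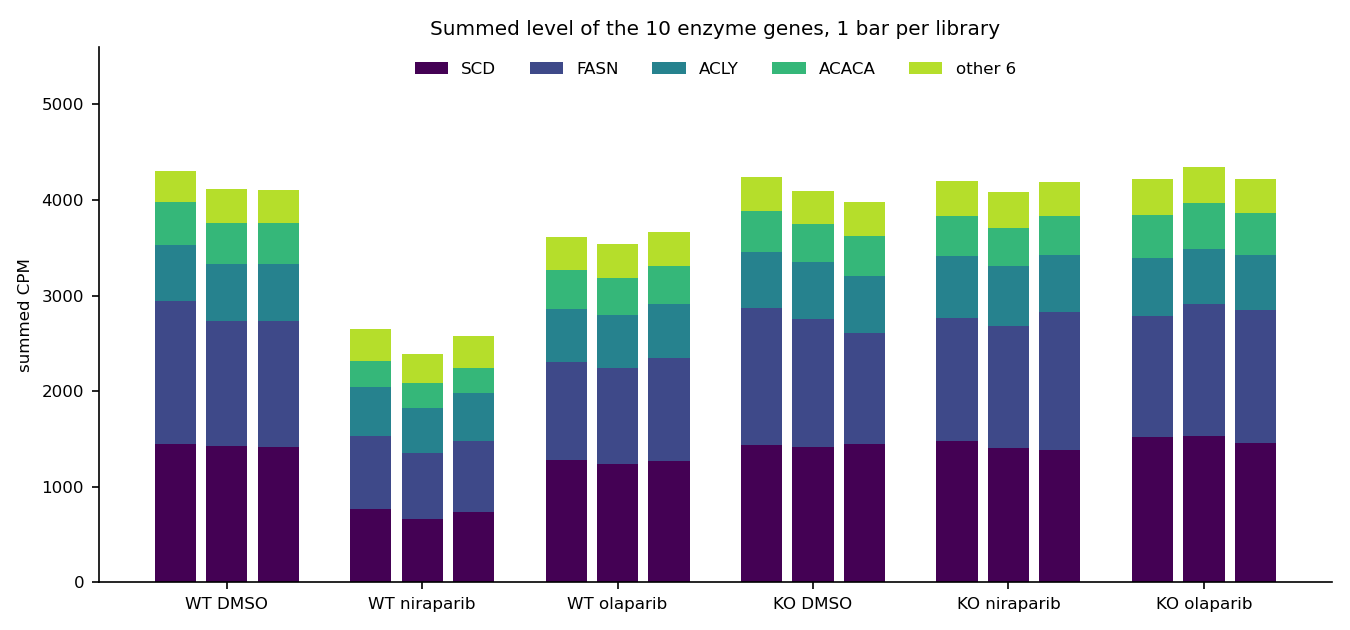
Summed level of the 10 enzyme genes (CPM), 1 bar for each of the 18 libraries, with SCD, FASN, ACLY, ACACA and the other 6 genes stacked. The WT niraparib bars (2386 to 2646 CPM) are lower than all others, the WT olaparib bars lie between 3541 and 3664 CPM, and the PARP1 KO bars lie between 3977 and 4342 CPM.

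Olaparib, compared with the same DMSO libraries, lowered FASN and SCD in WT cells. These were 2 of 10 members lower, with 7.77% of all genes lower, and 0 of 10 were higher, with 11.2% of all genes higher (edgeR, adjusted P below 0.05; at an unadjusted P below 0.05, 4 were lower and 2 higher, and DESeq2 gave 2 lower and 0 higher). FASN had a log2 fold change of -0.41 ± 0.06 (adjusted P = 2.6e-05) and SCD of -0.17 ± 0.05 (adjusted P = 0.026). Neither exceeded 1.5-fold, and the SCD call was lost without any 1 of 5 of the 6 libraries compared (WT olaparib replicate 1, 2 or 3, WT DMSO replicate 2 or 3; log2 fold change -0.18 to -0.16, adjusted P = 0.056 to 0.11). In those 5 fits FASN alone was called. The SCD call was kept with RLE size factors, with DESeq2, with the replicate block and with all 18 libraries in the fit. The other 8 members had log2 fold changes between -0.12 (ACACA, adjusted P = 0.10) and 0.77 (ME1, adjusted P = 0.33), and the summed level was 86.4% of that with DMSO.

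Niraparib and olaparib were compared directly, as 1 pair of compounds at the same dose and time in each genotype, with P values adjusted over all genes. Of the structures, only that of niraparib includes a piperidine. In WT cells 7 of 10 members were lower with niraparib than with olaparib, where 16.2% of all genes were. The log2 difference was -0.81 ± 0.05 for SCD (adjusted P = 2.5e-10), -0.59 ± 0.05 for ACACA (8.1e-09), -0.56 ± 0.06 for FADS2 (1.8e-07), -0.51 ± 0.06 for FASN (4.3e-07), -0.31 ± 0.06 for ELOVL6 (0.00035), -0.24 ± 0.05 for ACSS2 (0.00066) and -0.16 ± 0.05 for ACLY (0.01). For ELOVL5 the difference was -0.07 (95% interval -0.21 to 0.07), for FADS1 -0.02 (-0.13 to 0.10) and for ME1 -1.17 (-2.25 to -0.10, adjusted P = 0.093), and none of these 3 passed. ACACA was the 1 member of 10 that was lower with niraparib than with olaparib in PARP1 KO cells, where 5.73% of all genes were (log2 difference -0.16 ± 0.05, adjusted P = 0.033). The call was lost without KO olaparib replicate 2 (adjusted P = 0.20), without KO niraparib replicate 1, 2 or 3 (0.073, 0.15 and 0.051) and with the replicate block (0.065). For SCD the difference there was -0.07 (95% interval -0.17 to 0.02) and for FASN 0.00 (-0.14 to 0.14).

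**Figure D4:**
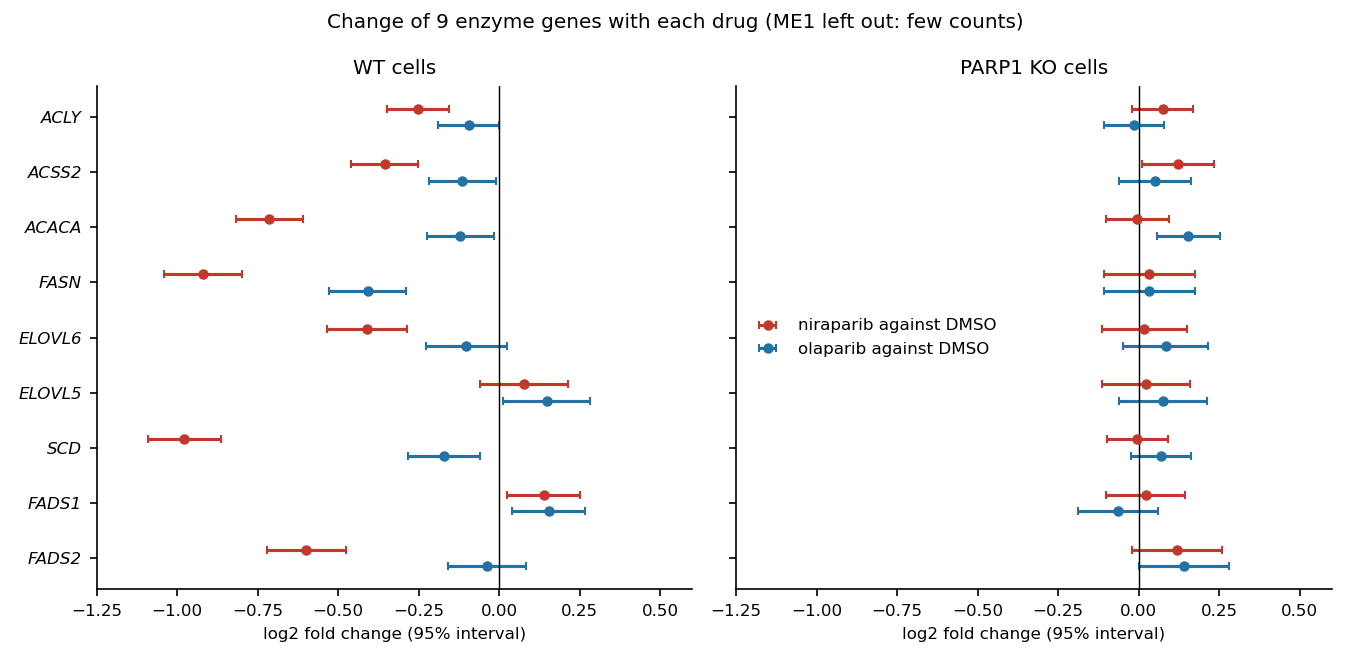
Log2 fold change of 9 enzyme genes with niraparib and with olaparib against DMSO, in WT cells (left) and PARP1 KO cells (right), with points for the estimate and bars for the 95% interval of the edgeR fit. In WT cells 7 niraparib intervals lie under 0, from SCD (-0.98) to ACLY (-0.25), while in PARP1 KO cells the estimates lie between -0.06 and 0.15.

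In PARP1 KO cells no member passed the test with niraparib, and the levels with DMSO were near those of WT cells. With niraparib, 0 of 10 members were lower and 0 higher, where 0.0499% and 0.0590% of the 22037 genes tested were (edgeR; at an unadjusted P below 0.05, 0 were lower and 1, ACSS2, was higher, and DESeq2 called 0). The 95% interval of the log2 fold change was -0.10 to 0.09 for SCD, -0.11 to 0.17 for FASN, -0.10 to 0.09 for ACACA and -0.02 to 0.26 for FADS2. With olaparib, compared with the same DMSO libraries, ACACA was the 1 member that was higher, where 4.42% of all genes were (log2 fold change 0.15 ± 0.05, adjusted P = 0.044). This call was lost without KO olaparib replicate 1 or 2 (adjusted P = 0.056 and 0.25), without KO DMSO replicate 1, 2 or 3 (0.086, 0.18 and 0.085), without the filter on low counts (0.064) and with the replicate block (0.082). Between the genotypes with DMSO, 0 of 10 members were lower or higher, where 0.584% and 0.811% of all 24675 genes were (at an unadjusted P below 0.05, 1, FADS1, was higher, and DESeq2 called 0). FADS1 had the largest difference with an interval off 0, 0.18 (95% interval 0.06 to 0.29, adjusted P = 0.12), and SCD differed by 0.01 (-0.09 to 0.10).

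The change with niraparib differed between the genotypes for 7 enzymes. The genotype by niraparib interaction was the change in PARP1 KO minus the change in WT (log2) in the fit of all 18 libraries. It was positive at an adjusted P below 0.05 for 7 of 10 members, where 10.4% of all genes were. It was 0.97 ± 0.07 for SCD (adjusted P = 2.6e-13), 0.95 ± 0.10 for FASN (3.7e-08), 0.71 ± 0.09 for FADS2 (1.2e-07) and 0.70 ± 0.07 for ACACA (4e-10). ACSS2 (0.47 ± 0.07, 3.8e-06), ELOVL6 (0.42 ± 0.09, 0.00027) and ACLY (0.32 ± 0.06, 0.00014) followed. The interval included 0 for ELOVL5 (-0.28 to 0.16), FADS1 (-0.29 to 0.04) and ME1 (-2.17 to 1.38). With olaparib the interaction was positive at an adjusted P below 0.05 for 3 of 10 members, where 0.912% of all genes were. These were FASN (0.45 ± 0.09, adjusted P = 0.011), ACACA (0.28 ± 0.07, 0.019) and SCD (0.25 ± 0.07, 0.045). At an unadjusted P below 0.05 in edgeR it was positive for 6 and negative for 1, and DESeq2 called 3 positive and 0 negative. The SCD call was lost with the replicate block (adjusted P = 0.068) and without any 1 of 11 of the 12 libraries compared, all but KO olaparib replicate 3 (0.054 to 0.12), and the ACACA call without KO olaparib replicate 2 (0.086), KO DMSO replicate 2 (0.065), WT olaparib replicate 2 (0.076) or WT DMSO replicate 1 (0.066). FASN was then the 1 member left in some of these fits.

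Other enzymes and regulators of the pathway were read from lists of genes with known functions. Among 17 further enzymes of synthesis, elongation and desaturation, 4 were lower and 4 higher with niraparib in WT cells, near the shares of 18.1% and 19.9% of all genes, with a median log2 fold change of 0.05. TECR, the reductase of the elongation cycle, and HACD4, a dehydratase of that cycle, were lower (-0.45 ± 0.05, adjusted P = 4.6e-07, and -0.56 ± 0.08, 9.1e-06). ELOVL4, the elongase of very long chains, rose from 7.55 ± 0.598 CPM to 15.1 ± 1.31 (SD, n = 3; log2 fold change 0.99 ± 0.10, adjusted P = 3.8e-08), and did not pass with olaparib (0.28 ± 0.10, adjusted P = 0.059). Of the 8 genes of NADPH supply, 3 were lower and 1 higher, where 18.1% and 19.9% of all genes were, with a median log2 fold change of -0.11. IDH1, the cytosolic isocitrate dehydrogenase, went from 69.3 ± 3.10 to 48.3 ± 5.75 CPM (log2 fold change -0.53 ± 0.07, adjusted P = 6.8e-06). In the mitochondrial pathway of fatty acid synthesis 3 of 9 were lower and 1 was higher, beside the same shares of all genes, with a median of -0.13. Among them were NDUFAB1, the acyl carrier protein (-0.51 ± 0.06, adjusted P = 3.4e-07), and MCAT, the malonyl transferase (0.27 ± 0.08, 0.011).

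Among 16 tested genes of fatty acid activation and glycerolipid synthesis, 3 were lower and 3 higher with niraparib in WT cells, shares near the 18.1% and 19.9% of all genes. DGAT2, which makes triglycerides, went from 1.73 ± 0.640 CPM (SD, n = 3) in DMSO to 5.14 ± 0.507 under niraparib and 5.80 ± 0.215 under olaparib, a low level at which both drugs raised it (log2 fold change 1.52 ± 0.19, adjusted P = 1.5e-06, and 1.70 ± 0.19, 2.2e-06). DGAT1, the other diacylglycerol acyltransferase, was lower with niraparib (-0.39 ± 0.06, adjusted P = 8e-06), and so was ACSL1, which activates long-chain fatty acids (-0.42 ± 0.05, 3.5e-07). Of the 15 tested genes of fatty acid oxidation, 9 were lower with niraparib and 0 higher, also 0 at an unadjusted P and with DESeq2, where 18.1% and 19.9% of all genes were, with a median log2 fold change of -0.24. HADHB, a subunit of the mitochondrial trifunctional protein, was at 128 ± 12.1 CPM with DMSO and 82.8 ± 7.22 with niraparib (-0.63 ± 0.07, adjusted P = 3.4e-06). CPT1A, the carnitine palmitoyltransferase of the mitochondrial entry step, was lower by less (-0.36 ± 0.05, 2.9e-06). With olaparib, 1 of these 15 was higher and 0 lower, where 11.2% and 7.77% of all genes were (at an unadjusted P below 0.05, 3 were lower, and DESeq2 gave 0 lower).

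Of the 21 tested regulators, 7 were lower and 4 higher with niraparib in WT cells, where 18.1% and 19.9% of all genes were, with a median log2 fold change of -0.12. INSIG1, which holds the SREBP precursors in the endoplasmic reticulum, had 81.1 ± 1.96 CPM (SD, n = 3) in DMSO, 24.5 ± 4.01 under niraparib and 91.8 ± 5.65 under olaparib, a log2 fold change of -1.74 ± 0.10 with niraparib (adjusted P = 8.1e-08). PARP1 KO cells had it at 68.2 ± 2.48 CPM with DMSO and 61.2 ± 7.77 with niraparib, and the interaction was 1.58 ± 0.20 (adjusted P = 6.5e-05). MBTPS1, the protease that first cleaves the SREBP precursors, was lower (-0.56 ± 0.05, 1.7e-08), as were MLX, the partner of the carbohydrate-responsive factors (-0.59 ± 0.05, 7.5e-09), and STK11, the kinase upstream of AMPK (-0.56 ± 0.05, 9.3e-09). The SREBP genes themselves, singled out after their values were seen, were at 103 ± 6.08 (SREBF1) and 211 ± 6.51 CPM (SREBF2) with DMSO and at 94.3 ± 2.99 and 164 ± 5.33 CPM with niraparib. SREBF2 passed (log2 fold change -0.36 ± 0.05, adjusted P = 1.4e-06) and SREBF1 did not (-0.12 ± 0.05, adjusted P = 0.058), while with olaparib SREBF1 passed (-0.27 ± 0.05, adjusted P = 0.00058).

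**Figure D5:**
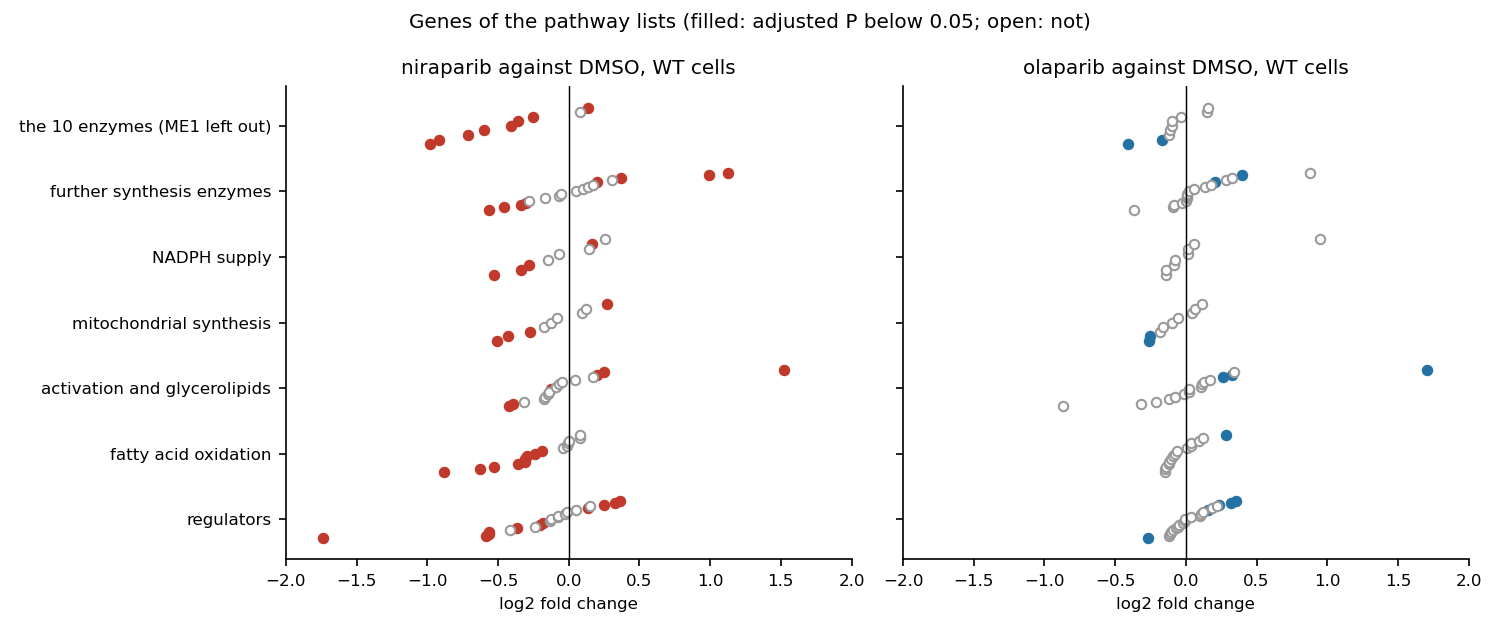
Log2 fold change of single genes of the 10 enzymes and of the 6 pathway lists with niraparib (left) and olaparib (right) against DMSO in WT cells, filled where the adjusted P is below 0.05. Of the enzymes, ME1 is left out of the plot. With niraparib 7 of the 10 enzymes and 9 of 15 oxidation genes lie to the left as filled points, INSIG1 is farthest to the left (-1.74), and DGAT2 is farthest to the right with both drugs.

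Over the 18 libraries, the genes whose log2 CPM followed FASN most closely (Pearson r, among 9803 genes with at least 10 CPM on average over all 18) were GATA3 (0.989), KDM4B (0.988), PCYT2 (0.983), CELSR1 (0.980) and CAPN2 (0.977). For SCD they were PRR11 (0.993), NIBAN2 (0.993), ERMP1 (0.993) and INCENP (0.991). These values rest in part on the WT niraparib group, and over the 15 libraries without it they were 0.928 to 0.965 for the FASN set and 0.820 to 0.883 for the SCD set. FASN and SCD had an r of 0.941 with each other and of 0.757 without that group. ACACA was at place 35 in the likeness to SCD (0.979, and 0.749 without that group) and at place 150 in the likeness to FASN (0.924, and 0.576 without it). The 15 libraries still include the WT olaparib group, where FASN was also lower than with DMSO. Differences between groups therefore remain in these values, and r within groups was not computed.

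Because GATA3 is a luminal marker, the luminal list is given beside these values. In WT cells 7 of its 8 genes were lower with niraparib and 7 of 8 with olaparib, all but EPCAM each time, where 18.1% and 7.77% of all genes were, and it summed to between 12328 and 12853 CPM in DMSO, 8836 and 9756 under niraparib and 9640 and 10057 under olaparib. In PARP1 KO cells 0 of 8 were lower with niraparib in edgeR (3 at an unadjusted P below 0.05 and 1 with DESeq2) and 4 of 8 with olaparib, where 0.0499% and 3.87% of all genes were, and it summed to 13672 to 14400 CPM in DMSO, 12627 to 13000 under niraparib and 11609 to 12683 under olaparib. The low sums of other lists moved in WT cells as well. The basal list (TP63 almost alone) was at 1.36 to 1.70 CPM in DMSO, 2.36 to 2.62 under niraparib and 1.24 to 1.79 under olaparib, and the adipocyte list at 1.24 to 1.60, 0.592 to 0.937 and 0.752 to 1.17 CPM. The part of these shifts in the values of the enzymes was not tested.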

How the data were processed

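Polyadenylated RNA was sequenced in 18 libraries. Unnormalised counts of each gene were deposited by the authors, who used Trimmomatic for trimming, STAR for mapping to GRCh38, Picard for duplicates and featureCounts 2.0.0, by strand and on primary alignments, with the exons of Ensembl 96. The genotypes come from the sample labels. Symbols were matched for 58472 of 58884 gene identifiers, and every entry names a gene. Intervals cover the spread between libraries, and library totals are given with the results.

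The test was the robust quasi-likelihood F test of edgeR 4.0.16 (R 4.3.3) with TMM factors and Benjamini-Hochberg adjustment over all tested genes, which had summed counts above 10. The WT and the PARP1 KO fit used 9 libraries each, and all 18 entered the fit of genotypes and interactions. Biological coefficients of variation were 7.04%, 7.42% and 7.24%. A gene passed at an adjusted P below 0.05, and changes of more than 1.5-fold were counted separately. CPM and RPKM use TMM factors over all 18 libraries. The alternatives were RLE size factors, filterByExpr, no filter, DESeq2 1.42.0, a replicate block, other sets of libraries in the fit, other thresholds and each library left out in turn. Libraries of a group differed by more than counting noise (chi-square of 3.13 to 19.0 per gene), so none was treated as a second deposit of another, which does not show that they came from separate cultures.

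All 10 members are described, and from each list the 4 genes with the largest change in WT cells with niraparib among those that passed, at a mean of at least 1 CPM, could be named. The members and lists were chosen with earlier results of these data known. Results of some genes are not reported here.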

Additional observations from a re-analysis of the deposited data

Results flagged for a closer look

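For 7 enzymes the change with niraparib differed between WT and PARP1 KO cells in the interaction test of edgeR on all 18 libraries. The change in PARP1 KO minus that in WT was taken on the log2 scale. Of all genes, 10.4% had a positive difference that passed at an adjusted P below 0.05. The difference was 0.97 for SCD, 0.95 for FASN, 0.71 for FADS2, 0.70 for ACACA, 0.47 for ACSS2, 0.42 for ELOVL6 and 0.32 for ACLY. For 3 enzymes the change with olaparib differed as well, by 0.45 for FASN, 0.28 for ACACA and 0.25 for SCD, where 0.912% of all genes did in this direction. Of these, the SCD call was lost with the replicate block (adjusted P = 0.068) and without any 1 of 11 of the 12 libraries compared (0.054 to 0.12), and the ACACA call without any 1 of 4 (KO olaparib replicate 2, KO DMSO replicate 2, WT olaparib replicate 2 or WT DMSO replicate 1; 0.065 to 0.086), so that 1 to 3 members passed with a library left out. The knockout is a single line, so the deletion and other differences between the lines cannot be told apart. With 3 libraries in each group, no library was tested as lying apart from the rest of its group.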

How the results depend on the processing

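ME1 had few counts in every library, and a change in it was not detectable at this depth. Over the alternatives, 1227 values of single members were computed, none that passed in either fit changed sign, and of the 417 values of the 29 that passed, 42 were lost. 4 others passed only under an alternative (ACACA and FADS1 in the fit of the 6 libraries compared, FADS1 with filterByExpr and ELOVL5 without the filter, all with olaparib in WT), and 40 values that did not pass changed sign.

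The number of members past the test, leaving out each library in turn, was 7 to 8 for niraparib against DMSO in WT, 1 to 2 for olaparib against DMSO in WT, 7 to 7 for niraparib against olaparib in WT, 0 to 1 for olaparib against DMSO and for niraparib against olaparib in PARP1 KO, 7 to 7 for the niraparib interaction and 1 to 3 for the olaparib interaction, and it stayed 0 for niraparib against DMSO in PARP1 KO and for the genotypes with DMSO. The PARP1 level in PARP1 KO was 7.32% to 7.55% of that in WT. With a change of more than 1.5-fold required, the counts were 4 for niraparib and 0 for olaparib against DMSO in WT, 2 between the drugs in WT, 0 for olaparib against DMSO and between the drugs in PARP1 KO, and 4 and 0 for the niraparib and olaparib interactions. At an adjusted P below 0.01 they were 1 for olaparib against DMSO in WT, 0 for olaparib against DMSO and between the drugs in PARP1 KO, and 0 for the olaparib interaction. The fit of only the 6 libraries compared gave 4 for olaparib against DMSO in WT, and the fit without a filter gave 0 for olaparib against DMSO in PARP1 KO, and the cause was not tested.

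Replicate numbers did not pair the libraries: of 18 correlations of the deviations of same-numbered libraries (-0.54 to 0.552), 5 were over 0.1, and 4 libraries correlated best with their own number. With the replicate block 7 members passed for niraparib against DMSO in WT, 2 for olaparib against DMSO in WT, 7 between the drugs in WT, 0 for olaparib against DMSO and 0 between the drugs in PARP1 KO, and 7 and 2 for the interactions.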
